A study of Mus musculus with 8 samples.

Results

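The 10 genes described here mark plasma cells or handle secreted proteins in the endoplasmic reticulum (ER): Prdm1, Sdc1, Ern1, Xbp1, Hspa5, Hsp90b1, Dnajb9, Dnajc3, Edem1 and Sec61b. They were chosen by name, as every non-control probe that the scanner files name for them, which gave 16 of 55681 probes. After a filter on dim probes, 13 of the 16 probes and all 10 genes were among the 20615 genes tested. The 3 probes left out were alternative Ern1 probes that were well above background on 0 of 8 arrays.

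RNA was measured on 8 single-colour Agilent arrays of 1676 cells, a mouse pre-B cell line. All cells carried the genotype SLP-65-/- LAT-/-, that is, they lacked 2 adaptor proteins of antigen receptor signalling, and all grew in medium with 7.5% FCS and were selected with 1 µg/ml puromycin after retroviral infection. The 4 groups of 2 arrays were control vector with IL-7, hsa-miR-125b vector with IL-7, control vector after 24 h without IL-7, and hsa-miR-125b vector after 24 h without IL-7. IL-7, the growth factor of B-cell precursors, was given in excess as supernatant of J558L cells made to express it; J558L is a mouse plasmacytoma line. The labels give withdrawal as a way to make pre-B cells differentiate, and the design text states that the 2 repetitions used clones generated separately, so each vector is represented by few clones of 1 line.

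Proteins bound for the cell surface or for secretion enter the ER through the Sec61 channel, fold there with the help of chaperones, and are pulled out and degraded if they fail. When unfolded proteins build up, the kinase and nuclease encoded by Ern1 (IRE1alpha) splices Xbp1 mRNA, and the spliced factor raises genes for chaperones, degradation and transport; this is an arm of the unfolded protein response. Plasma cells, which secrete antibody, need Xbp1 and the repressor Prdm1 (Blimp-1) and carry syndecan-1 (Sdc1, CD138) on their surface, whereas pre-B cells secrete no antibody. The arrays measure total Xbp1 RNA from 1 probe and do not separate its spliced form.

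On each array 47.7% to 54.8% of probes were well above background and 0 spots were saturated. Replicates correlated across genes at r = 0.994 to 0.996. All 11 pre-B markers reported, among them Vpreb1 and Igll1, passed the filter, with a summed signal of 1589 to 1666 times the array's 75th percentile with IL-7 and 1251 to 1283 times without. Of 15 plasma cell markers outside the 10 genes, 11 passed (summed signal 435.9 to 474.9 with IL-7 and 410.2 to 448.0 without). This sum was carried by its brightest genes. On the log2 scale, relative to the same percentile, these were Cd93 (7.55 to 7.76), Mzb1 (6.92 to 7.52) and Tnfrsf13b (5.26 to 5.67). The sum thus reflects mainly these genes, and whether their signal marks plasma cells here was not tested. Bhlha15 (−2.60 to −1.48) and Il6ra (−5.13 to −2.26) were dim. Jchain, the joining chain of antibodies, Tnfrsf17, a survival receptor of plasma cells, Prg2 and Ly6k did not pass. Of markers of other cells, those that passed were 4 of 10 for T and NK cells (summed signal 4.456 to 5.001 with IL-7, 6.204 to 6.765 without), 6 of 10 for myeloid cells (10.702 to 13.368 and 11.55 to 14.063), 2 of 6 for erythroid cells (0.119 to 0.207 and 0.171 to 0.292) and 1 of 6 for stromal cells (0.0659 to 0.0705 and 0.0451 to 0.0579), without Cd3d, Cd3g, Mpo, Hba-a1 or Col1a1. Within the T and NK list Cd8a was well above background on 0 of 4 arrays with IL-7 and at least 86.5-fold (control) and 99-fold (miR-125b) higher without, while Cd3e fell by 1.44 and 1.52 and Cd5 by 0.72 and 1.42. Markers of other cells that were well above background on all 8 arrays included Itgam of the myeloid list (3.14 to 3.67) and Nkg7 of the T and NK list (1.33 to 1.69). Csf1r (−0.89 to −0.20) and Elane (−0.94 to −0.15) of the myeloid list were too. The part of these other cells in the results was not tested. The 4 arrays with IL-7 shared a slide and a scan, and the 4 without shared another slide and scan; effects of withdrawal and of slide or scan cannot be told apart. The same holds for vector and the column of the slide that an array occupies. In these bulk RNA samples, fewer cells of a type and less RNA per cell cannot be told apart.

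On withdrawal of IL-7 in control cells, 2 of the 10 genes rose (Dnajb9 and Prdm1), 7 fell (Sdc1, Sec61b, Xbp1, Hspa5, Hsp90b1, Ern1 and Dnajc3) and Edem1 did not pass, while 54.1% of all genes were called (20.0% higher, 34.1% lower). Sec61b and Hsp90b1 fell relative to the 75th percentile of the arrays but read above 0 in control cells under other scalings given below. In miR-125b cells 3 rose (Dnajb9, Prdm1 and Edem1), 6 fell (those of control cells but Ern1), and 52.4% of all genes were called (20.3% higher, 32.1% lower). The median of the 10 differences was −0.39 in control and −0.35 in miR-125b cells on the log2 scale, against −0.13 and −0.11 over all genes. A gene was called where its limma p, adjusted by Benjamini-Hochberg across all genes, was below 0.05. With arrays scaled to their median, 2116 of 20615 genes rose and 10572 fell in control cells, and 2454 rose and 8868 fell in miR-125b cells. After quantile normalization 4865 rose and 5773 fell in control cells, and 4642 rose and 5045 fell in miR-125b cells. Counts of gene lists below stand against these, or against the shares above for the 75th percentile. Levels below are log2 signal relative to the 75th percentile of the same array, so a level of 0 is as bright as that percentile; differences are in log2 units, each with its standard error (SE) from the model.

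**Figure D1:**
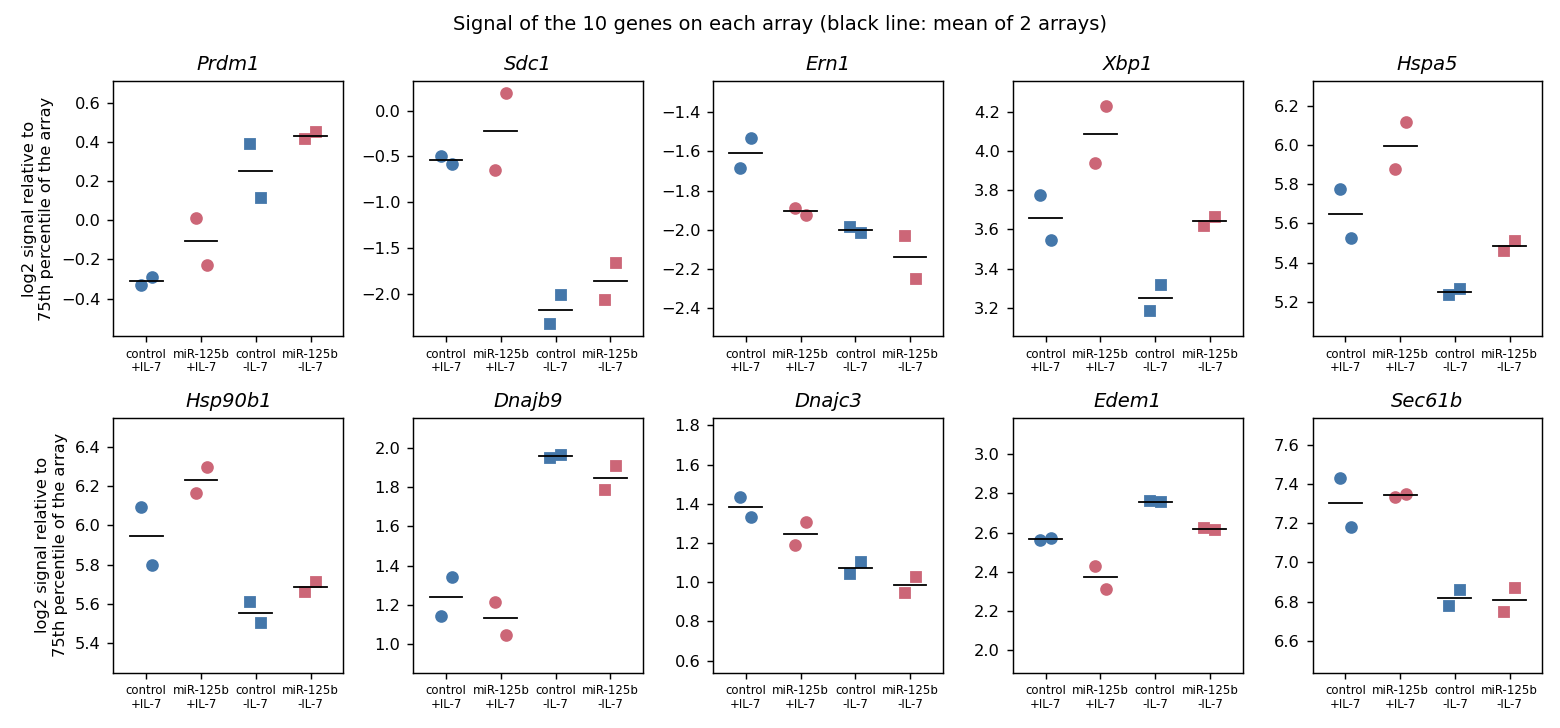
Level of each of the 10 genes on each array, as log2 signal relative to the 75th percentile of that array; circles are arrays with IL-7, squares without, blue control and red miR-125b vector, and the black line is the mean of 2 arrays. The squares of Sdc1 lie at −1.66 or below and its circles at −0.65 or above, while the squares of Dnajb9 and Prdm1 lie above all their circles.

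Sdc1, the syndecan that marks plasma cells and is also known from early B-cell stages in mouse, had the largest difference of the 10. Its probe lies on chromosome 12 at 8799383 to 8799442 (mm9). With IL-7 its level was −0.50 and −0.58 in control and −0.65 and 0.20 in miR-125b cells. Without IL-7 it was −2.33 and −2.02 in control and −2.06 and −1.66 in miR-125b cells. All 4 arrays without IL-7 were below all 4 with it, and the miR-125b pair with IL-7 was the most spread (SD 0.60). Sdc1 fell by 1.64 in control cells (SE 0.30, 3.11-fold, limma adjusted p = 0.00636) and by 1.64 in miR-125b cells (SE 0.30, adjusted p = 0.00699). Only 1.5% and 1.1% of all genes had a lower difference, and the call held in 19 of 19 other settings in both cell types.

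Prdm1, the repressor that shuts off the B-cell programme as plasma cells form, moved the other way. Its probe lies on chromosome 10 at 44157089 to 44157148 (mm9). Its level with IL-7 was −0.33 and −0.29 in control and 0.01 and −0.23 in miR-125b cells, and without IL-7 it was 0.39 and 0.11 in control and 0.41 and 0.45 in miR-125b cells. The arrays without IL-7 were again all on 1 side, here above. Prdm1 rose by 0.56 in control cells (SE 0.12, limma adjusted p = 0.0123) and by 0.54 in miR-125b cells (SE 0.12, adjusted p = 0.0149), a change of about 1.48-fold and 1.45-fold. With arrays scaled to their own median the differences were 0.23 (adjusted p = 0.185) and 0.29 (adjusted p = 0.108) and the calls were lost; the median of all genes was then −0.46 and −0.36, and Prdm1 lay 0.69 and 0.65 above it. The call was also lost in control cells without replicate 1 with IL-7 (0.54, adjusted p = 0.0572) or replicate 1 without it (0.42, adjusted p = 0.0606), and in miR-125b cells without replicate 2 with IL-7 (0.42, adjusted p = 0.0686) or either array without it (adjusted p up to 0.0675).

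Counts of the other plasma cell markers depended on the scaling. Of 11 measured, 3 rose and 2 fell in control cells and 3 rose and 1 fell in miR-125b cells, with medians of 0.15 and 0.02. After quantile normalization 6 rose and 0 fell (median 0.44) and 5 rose and 0 fell (median 0.26), and with arrays scaled to their median 3 rose and 4 fell and 3 rose and 2 fell. The ectoenzyme gene Cd38 had levels of 1.48 to 2.31 with IL-7 and 3.80 to 4.12 without, and rose by 1.82 (SE 0.27) and 2.16 (SE 0.27). The zinc finger gene Zbtb20 rose by 1.74 and 2.13 (SE 0.13 for both), from levels of −0.67 to −0.40 up to 1.13 to 1.59. Both are also expressed by B cells that are not plasma cells. Il6ra, a subunit of the interleukin-6 receptor, was not well above background in control cells with IL-7 and was at least 2.76-fold higher without; in miR-125b cells it rose by 1.33. With normexp background correction its differences were 0.07 (adjusted p = 0.576) and 0.30. Mzb1, an ER protein that helps antibody assembly, fell by 0.39 and 0.34, but read 0.13 and 0.20 after quantile normalization, and Fcrl5 fell by 0.34 in control cells, with its 2 probes at −2.06 and −0.34.

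Among genes that oppose Prdm1 in the B-cell programme, Bach2 and Pax5 rose in both cell types. Of 10 measured, 2 rose and 1 fell in control cells and 3 rose and 1 fell in miR-125b cells; after quantile normalization 6 rose and 0 fell (median 0.46) and 5 rose and 1 fell (median 0.28), and with median scaling 2 rose and 2 fell in each. Bach2, a repressor of Prdm1, had levels of 3.40 to 4.17 with IL-7 and 4.85 to 5.34 without and rose by 1.26 and 1.33 (SE 0.13 for both). Pax5, the B-lineage factor that Prdm1 represses, rose by 0.79 and 0.87, and Bcl6 rose by 0.41 in miR-125b cells. Id3, an inhibitor of E proteins, fell by 0.60 and 0.80. The rise of Prdm1 and those of Bach2 and Pax5 were thus found on the same arrays.

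Of the stress sensor and its factor, Xbp1 fell in both cell types and Ern1 in control cells. Xbp1 levels with IL-7 were 3.77 and 3.55 in control and 3.94 and 4.23 in miR-125b cells, and without IL-7 3.18 and 3.31 in control and 3.62 and 3.66 in miR-125b cells. Within each vector the arrays without IL-7 were lower, but miR-125b cells without IL-7 overlapped control cells with it. Xbp1 fell by 0.41 (SE 0.13, limma adjusted p = 0.0413) and by 0.44 (SE 0.13, adjusted p = 0.0335). After quantile normalization the differences were −0.26 (adjusted p = 0.0823) and −0.23 (adjusted p = 0.118), and the call was kept in 7 of 19 other settings in each cell type. It was lost without any of 5 arrays in each cell type (adjusted p 0.0691 to 0.174 in control and 0.052 to 0.139 in miR-125b cells), among them all 4 arrays without IL-7 and replicate 1 of control or replicate 2 of miR-125b cells with it (−0.30 in each).

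Ern1 was dim, at levels of −1.68 and −1.53 in control cells and −1.89 and −1.93 in miR-125b cells with IL-7. Without IL-7 it read −1.98 and −2.02 in control and −2.03 and −2.25 in miR-125b cells. It fell by 0.39 in control cells (SE 0.10, limma adjusted p = 0.0209), where the 2 groups did not overlap; the call was lost without replicate 2 with IL-7 (−0.32, adjusted p = 0.0836) or either array without it (adjusted p up to 0.0853). In miR-125b cells the difference was −0.23 (SE 0.10, adjusted p = 0.0997), which passed with arrays scaled to their median (−0.48, adjusted p = 0.0217) and after quantile normalization (−0.33, adjusted p = 0.0247). In all, Ern1 was called in miR-125b cells in 4 of 19 other settings, where differences ran from −0.48 to −0.12 over the 19. The difference between the 2 withdrawal responses of Ern1 was 0.16 (SE 0.14, adjusted p = 0.978).

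Other sensors and factors of the unfolded protein response were called in both directions. Of 13 measured, 3 rose and 3 fell in control cells and 5 rose and 3 fell in miR-125b cells; with median scaling 1 rose and 6 fell and 0 rose and 4 fell, and after quantile normalization 4 rose and 2 fell and 7 rose and 2 fell. Eif2ak3, which encodes the ER stress kinase PERK, rose by 0.85 (SE 0.10, adjusted p = 0.00182) and 0.55 (SE 0.10, adjusted p = 0.00625), from levels of 2.87 to 3.22 up to 3.52 to 4.04. The stress-induced factor gene Atf3 rose by 0.71 in miR-125b cells. Mbtps1, which encodes the protease that releases ATF6, rose by 0.25 and 0.35 at its brighter probe, read −0.39 and −0.05 at the other, and read −0.08 in control cells with arrays scaled to their median. Ppp1r15b, a phosphatase subunit that resets translation, fell by 0.30 in both cell types, and Traf2 and Mbtps2 fell at their brighter probes, while at least 1 other probe of each was above 0.

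The ER chaperone genes Hspa5 (BiP, which binds unfolded chains and holds the stress sensors inactive) and Hsp90b1 (GRP94) were among the brightest 10% of genes. Hspa5 levels with IL-7 were 5.77 and 5.53 in control and 5.88 and 6.12 in miR-125b cells, and without IL-7 5.24 and 5.27 in control and 5.46 and 5.51 in miR-125b cells. Hspa5 fell by 0.40 (SE 0.12, limma adjusted p = 0.0343) and by 0.51 (SE 0.12, adjusted p = 0.0157). Hsp90b1, at levels of 5.80 to 6.30 with IL-7 and 5.50 to 5.71 without, fell by 0.39 (SE 0.12, adjusted p = 0.0355) and by 0.54 (SE 0.12, adjusted p = 0.0127). For both genes the arrays without IL-7 were all below those with it. Both differences lay within the middle 50% of the brightest 10% of genes, which ran from −0.78 to −0.24 in control cells (median −0.54) and from −0.73 to −0.24 in miR-125b cells (median −0.52). After quantile normalization Hspa5 differed by −0.08 (adjusted p = 0.43) and −0.14 (adjusted p = 0.206) and Hsp90b1 by −0.04 (adjusted p = 0.765) and −0.15 (adjusted p = 0.216), and Hsp90b1 in control cells read 0.03 with cyclic loess. In control cells both calls were lost without replicate 1 with IL-7 (−0.27 and −0.24, adjusted p = 0.143 and 0.13) or without any array of either vector without IL-7 (adjusted p up to 0.144). In miR-125b cells both were lost without replicate 2 with IL-7 (−0.39 and −0.48, adjusted p = 0.0703 and 0.0634) or either array without it (adjusted p up to 0.0733).

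**Figure D2:**
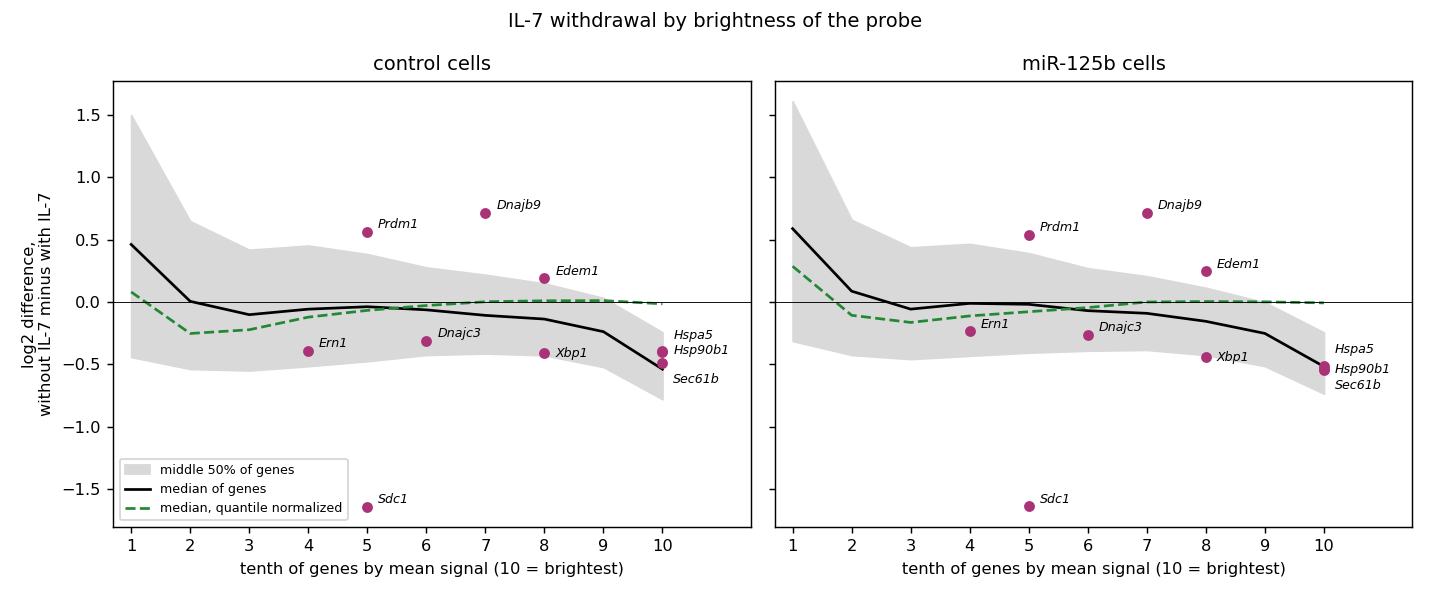
Log2 difference between arrays without and with IL-7 (vertical axis) by brightness bin of genes ranked on mean signal, each bin 10% of genes (horizontal axis, 10 the brightest); the black line is the median of the genes in a bin, the grey band their middle 50%, the dashed green line the median after quantile normalization, and the points are the 10 genes. Hspa5, Hsp90b1 and Sec61b lie in the brightest bin, whose median is −0.54 in control cells and −0.52 in miR-125b cells and −0.01 after quantile normalization, while Sdc1, Prdm1, Dnajb9 and Edem1 lie outside the grey band in both panels and Xbp1 just below it in miR-125b cells.

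Hspa5 and Hsp90b1, with Dnajc3, are also the members whose promoter holds an exact ER stress response element (ERSE), the site known to be read by NF-Y together with ATF6 or XBP1. Windows of 250 bases before to 50 bases after the RefSeq start (GRCm38.p6) were searched on both strands for the element, spelled CCAAT and CCACG with any 9 bases between them. It was found in 3 of 10 members and in 37 of 27025 genes (0.137%). ERSE-II (ATTGG and CCACG with any base between them; it shares CCACG, and on the opposite strand CCAAT, with ERSE) and TGACGTGG (the core of the unfolded protein response element) were in 0 of 10 members and in 0.044% and 0.714% of genes. The 250 bases before each of the 3 starts are shown 5′ to 3′ on the strand of the gene, since these are the members with the element; capitals mark the fixed letters of each match. They lie at chr2:34771840-34772089 on the plus strand for Hspa5, chr10:86705445-86705694 on the minus strand for Hsp90b1, and chr14:118937682-118937931 on the plus strand for Dnajc3.
Hspa5: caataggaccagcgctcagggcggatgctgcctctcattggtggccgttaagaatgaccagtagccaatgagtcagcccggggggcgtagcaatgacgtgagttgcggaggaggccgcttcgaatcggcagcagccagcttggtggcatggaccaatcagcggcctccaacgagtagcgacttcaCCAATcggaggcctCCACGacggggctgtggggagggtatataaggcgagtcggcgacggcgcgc
Hsp90b1: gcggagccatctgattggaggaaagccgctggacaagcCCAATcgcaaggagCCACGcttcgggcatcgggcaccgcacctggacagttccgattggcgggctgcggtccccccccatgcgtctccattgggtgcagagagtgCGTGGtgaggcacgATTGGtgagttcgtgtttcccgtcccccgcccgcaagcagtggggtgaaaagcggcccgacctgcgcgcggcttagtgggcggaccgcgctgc
Dnajc3: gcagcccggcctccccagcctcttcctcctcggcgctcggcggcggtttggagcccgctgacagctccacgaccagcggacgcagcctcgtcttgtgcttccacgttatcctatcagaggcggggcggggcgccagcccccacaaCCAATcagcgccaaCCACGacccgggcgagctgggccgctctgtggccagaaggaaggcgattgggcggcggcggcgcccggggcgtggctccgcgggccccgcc
Counted from the start, the Hspa5 match lies at −65 to −47 and the Dnajc3 match at −105 to −87. Hsp90b1 has a match at −212 to −194 and another, on the opposite strand, at −107 to −89. Relative to the 75th percentile all 3 genes with a match fell on withdrawal in both cell types, as did Sdc1, Xbp1 and Sec61b, which have none; Dnajb9 and Prdm1, which rose, have none either.

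Other ER chaperones and folding enzymes were mostly lower. Of 22 measured, 12 fell and 3 rose in control cells and 12 fell and 3 rose in miR-125b cells, with medians of −0.36 and −0.26. Quantile normalization left 6 lower and 4 higher in each cell type, with medians of −0.11 and −0.12. The lectin chaperone gene Calr fell by 0.89 (SE 0.13) and 0.67 (SE 0.13), from levels of 4.30 to 4.95 down to 3.52 to 4.22. P4hb, which encodes protein disulfide isomerase, fell by 0.64 and 0.68 (SE 0.07 for both), and the related Txndc5 fell by 0.91 and 0.61 (SE 0.10 for both). The calls of Calr in control cells, and of P4hb and Txndc5 in control cells, held in 19 of 19 other settings. Against this, Pdia5, another isomerase, rose by 2.30 in control cells (SE 0.16) and was at least 6.26-fold higher in miR-125b cells, where it was not well above background with IL-7. The oxidase gene Ero1b rose by 0.68 and 0.51, and Txndc11 by 0.75 and 0.30 (its other probe gave 1.01 and 0.97).

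The 2 co-chaperone genes of the ER went apart. Dnajb9 (ERdj4), which recruits BiP to misfolded proteins and to IRE1, had levels with IL-7 of 1.14 and 1.34 in control and 1.21 and 1.05 in miR-125b cells. Without IL-7 they were 1.95 and 1.96 in control and 1.78 and 1.91 in miR-125b cells, all above those with IL-7. Dnajb9 rose by 0.72 in both cell types (SE 0.11, 1.64-fold, limma adjusted p = 0.00334 in control and 0.0039 in miR-125b cells), and the call held in 19 of 19 other settings in each. The reported probe lies on chromosome 12 at 45307313 to 45307372; another Dnajb9 probe, for the same RefSeq transcript at 45308272 to 45308331 (mm9), gave 0.15 (adjusted p = 0.308) and 0.28 (adjusted p = 0.0877). Dnajc3 (p58IPK), which assists BiP in the ER lumen, had levels of 1.43 and 1.33 in control and 1.19 and 1.31 in miR-125b cells with IL-7, and of 1.04 and 1.105 in control and 0.94 and 1.03 in miR-125b cells without. Within each vector the arrays without IL-7 were the lower. It fell by 0.31 in control cells (SE 0.08, adjusted p = 0.0235) and by 0.26 in miR-125b cells (SE 0.08, adjusted p = 0.0417). These calls held in 13 and 8 of 19 other settings, and the one in miR-125b cells was lost with cyclic loess. The call was lost in control cells without replicate 1 with IL-7 or either array without it (adjusted p 0.0662 to 0.115), and in miR-125b cells without either array with IL-7 or any array of either vector without it (adjusted p 0.054 to 0.173).

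Edem1, a lectin that hands misfolded glycoproteins to degradation, differed by little. Its levels were 2.56 and 2.57 in control and 2.43 and 2.31 in miR-125b cells with IL-7, and 2.76 and 2.75 in control and 2.62 and 2.61 in miR-125b cells without. It rose by 0.25 in miR-125b cells (SE 0.07, adjusted p = 0.0313), a call kept in 10 of 19 other settings and lost without replicate 2 with IL-7 (0.19, adjusted p = 0.131) or any array of either vector without it (adjusted p up to 0.115). In control cells the difference was 0.19 (SE 0.07, adjusted p = 0.0665), 0.33 after quantile normalization (adjusted p = 0.0134) and −0.14 with arrays scaled to their median (adjusted p = 0.355), where the median of all genes was −0.46.

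Of 16 other genes of ER-associated degradation, 2 rose and 2 fell in control cells and 2 rose and 4 fell in miR-125b cells. With median scaling 1 rose and 9 fell in each, while 10572 and 8868 of all 20615 genes fell. After quantile normalization 6 rose and 2 fell in control cells (median 0.15) and 4 rose and 3 fell in miR-125b cells (median 0.13). Over all genes 4865 rose and 5773 fell in control cells and 4642 rose and 5045 fell in miR-125b cells. The lectin gene Erlec1 rose by 1.196 and 1.097 (SE 0.09 for both), from levels of 0.09 to 0.27 up to 1.25 to 1.43. Herpud1, a scaffold of the degradation complex that is induced in ER stress, rose by 0.34 and 0.45 (SE 0.09 for both), calls that were lost with median scaling (0.0088 and 0.20) and kept in 14 and 16 of 19 other settings. The conjugating enzyme gene Ube2g2 fell by 0.46 and 0.44, and Edem2, a relative of Edem1, fell by 0.37 and 0.46.

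Sec61b, the beta subunit of the channel, was, with Hspa5 and Hsp90b1, in the brightest 10% of genes. Its levels with IL-7 were 7.43 and 7.18 in control and 7.34 and 7.35 in miR-125b cells, and without IL-7 6.78 and 6.86 in control and 6.75 and 6.87 in miR-125b cells. Relative to the 75th percentile it fell by 0.49 (SE 0.11, limma adjusted p = 0.0115) and 0.54 (SE 0.11, adjusted p = 0.00896), a direction kept with arrays scaled to their median (−0.82 and −0.78) but not after quantile normalization. Each call was also lost without replicate 1 of that vector without IL-7 (−0.45, adjusted p = 0.0653, and −0.48, adjusted p = 0.0517). Its 3 probes gave −0.56 to −0.43 in control and −0.54 to −0.41 in miR-125b cells. The difference was 0.05 and 0.01 after quantile normalization (adjusted p = 0.588 and 0.926) and 0.05 and −0.03 with cyclic loess. The median of the brightest 10% of genes was −0.54 and −0.52 with the same scaling to the 75th percentile.

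The other genes of the channel and of targeting to it included falls and no called rise with scaling to the 75th percentile. Of 28 measured, 13 fell and 0 rose in control cells and 14 fell and 0 rose in miR-125b cells, with a median of −0.25 in each, by limma at the adjusted threshold; 15 and 17 had an unadjusted p under 0.05, as did 12576 and 12220 of 20615 genes. After quantile normalization 7 fell and 4 rose in control cells and 5 fell and 3 rose in miR-125b cells, with medians of −0.02 and −0.04. Ddost, a subunit of the enzyme that attaches sugar chains, fell by 0.76 in both cell types (SE 0.09) and kept its call in 19 of 19 other settings in each. Dad1, of the same enzyme, fell by 0.67 and 0.57, and the channel subunit gene Sec61g fell by 0.60 and 0.65, but read −0.09 (adjusted p = 0.241) and −0.12 (adjusted p = 0.125) after quantile normalization.

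**Figure D3:**
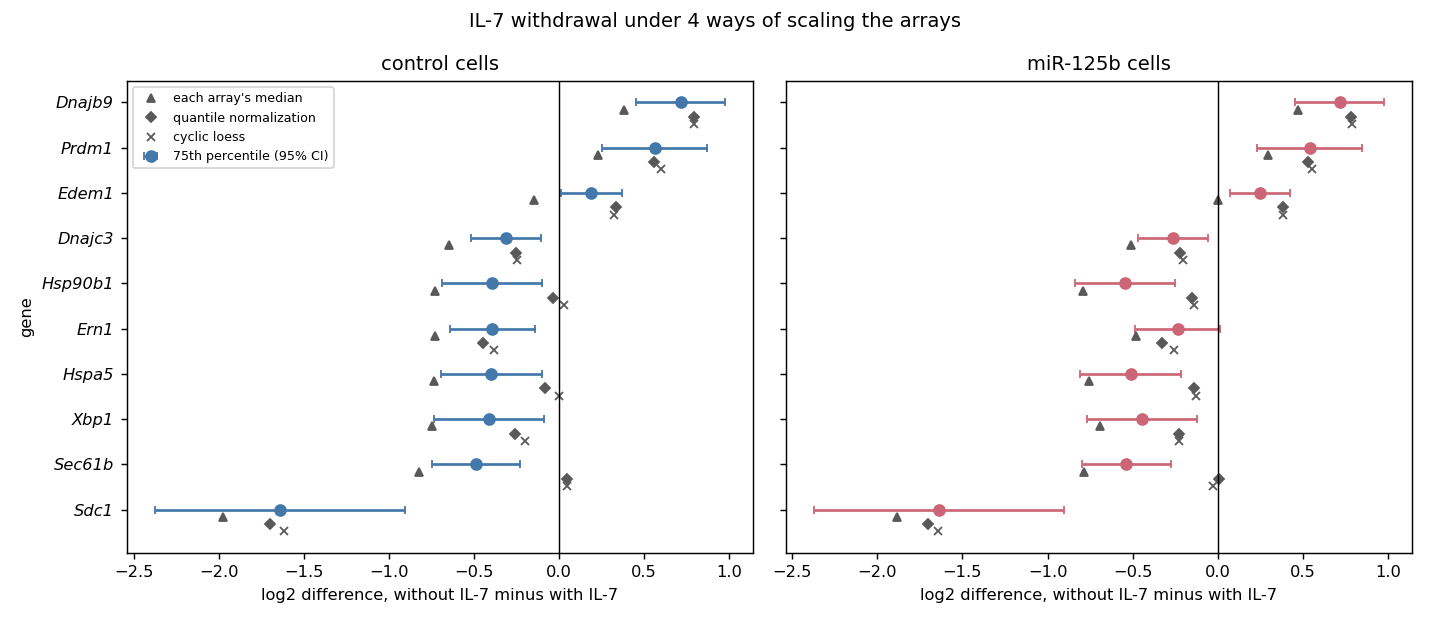
Log2 difference between arrays without and with IL-7 for each gene in control cells (left) and miR-125b cells (right); coloured points with bars are the fit on arrays scaled to the 75th percentile with its 95% confidence interval, and grey marks are 3 other scalings. Sdc1, Dnajb9 and Prdm1 keep their side of 0 under each scaling, while Sec61b moves from −0.49 to 0.05 in control cells after quantile normalization and Edem1 from 0.19 to −0.14 with scaling to the median.

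**Figure D4:**
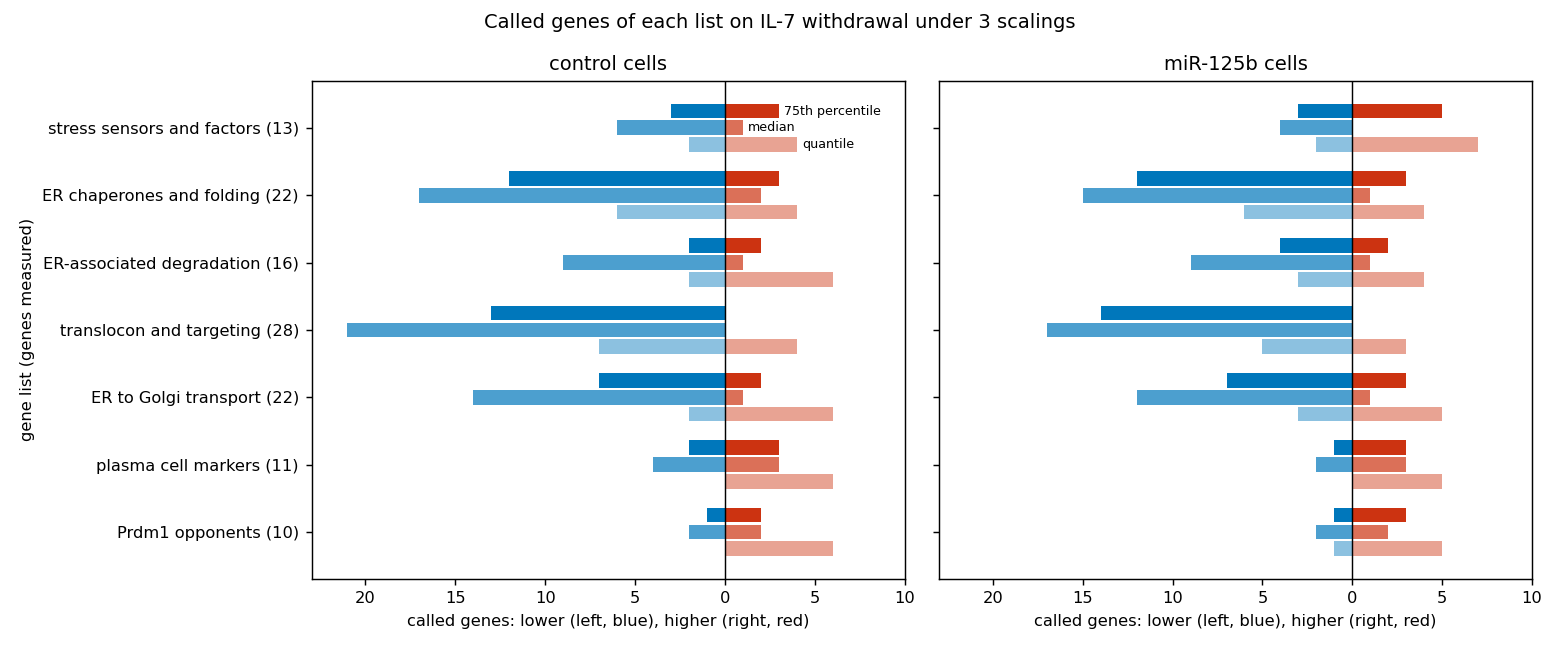
Number of genes called lower (blue, left) and higher (red, right) on IL-7 withdrawal in 7 gene lists, with the number measured in brackets, under 3 scalings of the arrays (75th percentile, median and quantile, from dark to light). Translocon and targeting genes go from 13 lower and 0 higher to 7 lower and 4 higher with quantile normalization in control cells.

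Whether miR-125b changes these genes was compared within each IL-7 condition, that is, within a slide. The vector encodes hsa-miR-125b-1; the mature 5p strand of the mouse miRNA, from the RefSeq table (Mir125b-1 on chromosome 9 and Mir125b-2 on chromosome 16, GRCm38.p6), is shown with its seed, bases 2 to 8, in capitals because it is the sequence by which the miRNA chooses targets.
mmu-miR-125b-5p: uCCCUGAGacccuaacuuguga
Human PRDM1 has been reported as a miR-125b target in B cells. With IL-7, 0 of the 10 genes were called by limma, against 2.60% of all genes (1.13% higher, 1.47% lower), and 4 of the 10 had an unadjusted p under 0.05 (Xbp1 and Hspa5 higher, Ern1 and Edem1 lower), as did 4259 of 20615 genes. Without IL-7, 0 of the 10 were called, against 6.49% of all genes (2.97% higher, 3.51% lower), and Xbp1 alone had an unadjusted p under 0.05, as did 5213 of 20615 genes. Prdm1 was 0.20 higher with miR-125b in IL-7 (SE 0.12, 95% interval −0.10 to 0.51, adjusted p = 0.41) and 0.18 higher without (95% interval −0.13 to 0.49, adjusted p = 0.425). Sdc1 was 0.31 higher in both conditions (SE 0.30, adjusted p = 0.599 and 0.566), with intervals from −0.42 to 1.05.

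Averaged over both conditions, 1 of the 10 genes was called, against 15.9% of all genes (7.27% higher, 8.59% lower). This was Xbp1, which rose by 0.41 with miR-125b (SE 0.09, 1.33-fold, limma adjusted p = 0.0381). The miR-125b arrays were above the control arrays in each condition, by 0.43 with IL-7 (SE 0.13, adjusted p = 0.149) and 0.39 without (SE 0.13, adjusted p = 0.138). The call held in 10 of 18 other settings and was lost when replicate 2 of either group with IL-7, or any array without IL-7, was left out (adjusted p 0.0788 to 0.123, difference 0.34 to 0.44). Hspa5 was 0.29 higher (SE 0.08, adjusted p = 0.0713) and Hsp90b1 0.21 higher (SE 0.08, adjusted p = 0.151), while Ern1 was −0.22 (SE 0.07, adjusted p = 0.0941) and Edem1 −0.17 (SE 0.05, adjusted p = 0.0796). Of these 4, Hspa5 was called in 7 of 18 other settings, Edem1 in 1, and Hsp90b1 and Ern1 in 0. Sec61b (0.01), Dnajb9 (−0.11) and Dnajc3 (−0.11) had intervals that include 0.

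**Figure D5:**
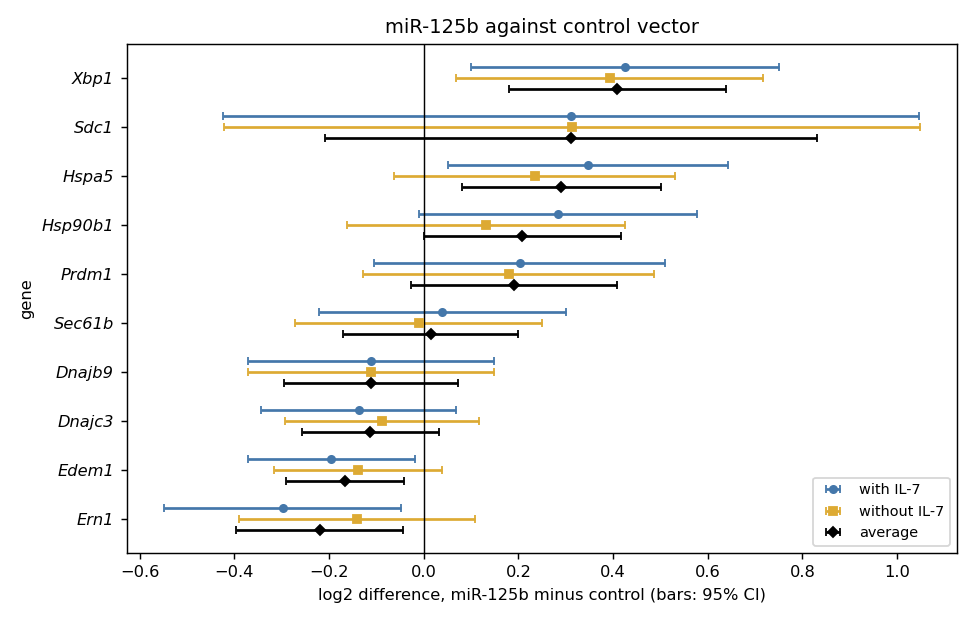
Log2 difference between miR-125b and control cells (horizontal axis, bars 95% confidence intervals) for each gene with IL-7 (blue circles), without IL-7 (yellow squares) and averaged over both (black diamonds). Xbp1 lies at 0.43, 0.39 and 0.41, and its intervals do not reach 0.

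Genes of the same pathways moved with miR-125b in both directions. Of 22 ER chaperones and folding enzymes, 5 rose and 4 fell in the average. Txndc5 rose by 0.71 (SE 0.07, adjusted p = 0.00511), from levels of 0.55 and 0.71 in control to 1.14 and 1.25 in miR-125b cells with IL-7, and from −0.28 and −0.27 to 0.49 and 0.68 without. Calr rose by 0.50 and Hyou1, a large chaperone partner of BiP, by 0.38, whereas Dnajc10 fell by 0.34. Pdia5 was at least 1.68-fold lower with miR-125b in IL-7, where it was not well above background; this call held in 5 of 18 other settings and was lost without any 1 array (adjusted p up to 0.151). With arrays scaled to their median (all-gene median 0.12 in place of −0.02), the falls with miR-125b were mostly lost. Then 1 chaperone, 0 sensors, 0 degradation genes, 0 plasma cell markers and 0 opponents of Prdm1 fell, and 1871 of 20615 genes rose and 553 fell. After quantile normalization 4 chaperones, 5 sensors, 2 degradation genes, 2 plasma cell markers and 3 opponents fell. With cyclic loess these counts were 3, 5, 2, 2 and 3. The counts that follow are those for the 75th percentile, where 7.27% of all genes rose and 8.59% fell. Of 13 sensors and factors 0 rose and 4 fell (1 rose and 0 fell with median scaling, and 0 to 3 were called with an array left out), among them Traf2 (−0.38), Eif2ak3 (−0.34) and Nfyb (−0.30), a subunit of NF-Y. Of 16 degradation genes, the enzyme genes Ube2j1 (−0.47, SE 0.06, adjusted p = 0.00797) and Syvn1 (−0.22, called in 3 of 18 other settings) fell and 0 rose. Of 28 channel and targeting genes, the receptor gene Srpr (0.33) and Ddost (0.28) rose and 0 fell. Of 11 plasma cell markers Il6ra (no size is given, since 0 of 2 control arrays with IL-7 were well above background) and Bhlha15, a factor of secretory cells, (0.54) rose, and the calcium pump gene Atp2a3 (−0.40) and Slamf7 (−0.34) fell. Of the 10 opponents of Prdm1, Bach2 (−0.48, with its other probe at −0.11), Spib (−0.41) and Ets1 (−0.40) fell and 0 rose. Several of these calls in the average were not firm. Those of Bhlha15 (limma adjusted p = 0.0491), Nfyb and Dnajc10 held in 8 of 18 other settings. Those of Eif2ak3, Ddost and Spib held in 9 and that of Bach2 in 10. Traf2 held in 11, Calr in 12, Ube2j1 in 17 and Txndc5 in 18. Pdia5 was also called lower in the average, and that call held in 16 of 17 other settings. No size is given for it, since 0 of 2 miR-125b arrays with IL-7 were well above background.

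Whether miR-125b alters the withdrawal response was tested as the difference between the 2 responses. By limma 0 of the 10 genes passed, and 0 of 20615 genes (0%); at an unadjusted p under 0.05 the counts were 0 and 1212. The estimates for the 10 genes ran from −0.15 for Hsp90b1 to 0.16 for Ern1. For Dnajb9 the difference was 0.00 (SE 0.15, 95% interval −0.37 to 0.37), for Prdm1 −0.02 (SE 0.18, 95% interval −0.46 to 0.41) and for Sdc1 0.00 (SE 0.42, 95% interval −1.04 to 1.04). Changes of the response within these intervals are not excluded. The intervals are not adjusted over all genes as the calls are, so larger changes could also have gone uncalled.

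Genes whose level followed Prdm1 most closely over the 8 arrays were F5, Tlr12, Kcnk3, Smim24 and Ppfia4 (Pearson r 0.971 to 0.983), out of 3561 genes whose group means span at least 1 on the log2 scale. For Xbp1 they were Gbp3, Pkd1l3, Ydjc, Egfl7 and Bcat2 (r 0.989 to 0.992). These are descriptions over arrays that fall into 2 slides, with the IL-7 condition shared by all points of a slide.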

How the data were processed

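RNA of 8 samples, 2 for each of 4 groups, was measured on single-colour arrays after labelling 100 ng of total RNA. Per the file headers, the deposited scanner files hold a processed, background-subtracted signal intensity per spot on a linear scale, with the mean signal and median background intensity and quality marks (other: 0 or 1). Arrays without IL-7 were read with Feature Extraction 10.7.1.1 and the others with 10.7.3.1, per the same headers; the submitters' processing notes name 10.7.1.1. The authors also deposited a normalized intensity matrix on a linear scale, used as an alternative.

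Control spots (3671 of 62976) and 58 probes marked as not uniform were left out. Each log2 signal was taken relative to the log2 75th percentile of its array. Probes had to be marked well above background on 2 of 2 arrays in some group, which left 29811, and a gene was read from its brightest kept probe, which for the 10 genes was well above background on all 8 arrays. Where a probe was above background on 0 arrays of a group, a bound ("at least") is given, for which the dim side takes its own signal or, if that is higher, the lowest of any probe marked well above background. Names on the 2 slides' grids differ for 16.0% of probes, and 12 of the 16 probes carry the member's name on both; names were updated through RefSeq accessions. Probe positions (mm9) come from the files.

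The test was limma's (version 3.58.1, R 4.3.3), with 1 mean per group over all 8 arrays, 4 residual and 1.82 prior degrees of freedom, in 6 comparisons, each adjusted over 20615 genes; tests are two-sided and the fit was tested on simulated data. With 2 arrays a group, p-values rest on the spread between arrays of a group, pooled over the 4 groups and moderated over all genes. They do not cover the choice of scaling or probe, or effects of slide and scan. Alternatives were normexp with an offset of 50, median, quantile and cyclic loess scaling, the deposited table, other probe filters, a mean-variance trend, only the arrays compared, the mean over probes, a replicate block and leaving out each array, where a lone array is assumed to vary like the other groups; cyclic loess was added after seeing the data. The 10 genes and the gene lists were chosen with earlier results of these data known. From each list up to 3 called genes with the largest rise and 3 with the largest fall per comparison could be named. Whether replicate numbers pair the samples across groups is not stated, so the main fit did not pair them. Deviations of same-numbered arrays correlated at −0.10 to 0.11 over the 6 pairs of groups. This shows no pairing but cannot exclude it. One pre-B marker of the list is not reported here and was left out of its sums.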

Additional observations from a re-analysis of the deposited data

How the results depend on the processing

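Of the 10 genes, those called numbered 9 in each withdrawal comparison and 1 for the miR-125b average. For the average, the count was 2 with normexp, median, quantile or cyclic loess scaling, the deposited table, or probes above background on all arrays, 3 with a mean-variance trend, 0 with no filter on dim probes, and 0 to 1 with an array left out. On withdrawal in control cells it was 4 with no filter and 5 with only the arrays compared, and 2 to 9 with an array left out: 2 without control without IL-7 replicate 1, and 4 without its replicate 2 or control with IL-7 replicate 1. In miR-125b cells it was 4 with cyclic loess and 2 to 9 with an array left out: 3 without miR-125b with IL-7 replicate 2, and 2 and 3 without replicate 1 and 2 of miR-125b without IL-7. It was 6 with quantile normalization in both. With the replicate number as a block the counts were 0, 6 and 6. Every group holds both replicate numbers, so the block could change the error of a difference but not its size or sign. The comparisons of miR-125b in a single condition and the difference of responses gave 0 in every setting run.

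Differences on withdrawal that changed sign were, in control cells, Sec61b with quantile normalization (0.0476), the deposited table (0.0519) and cyclic loess (0.0489), Hsp90b1 with cyclic loess (0.0286), Edem1, not called, with median scaling (−0.14), Mzb1 with these 3 (0.13, 0.14 and 0.16), Nfyb with median scaling (−0.0811), Mbtps1 with median scaling (−0.0847) and the mean over probes (−0.0697), and Hspa1a with normexp (−0.16). In miR-125b cells they were Sec61b with quantile normalization (0.0089) and the deposited table (0.0145), Mzb1 with quantile normalization (0.20), the deposited table (0.22) and cyclic loess (0.18), Sec24d with normexp (−0.0635), Sec24a with the mean over probes (−0.0780) and Hspa1a with normexp (−0.29). The cause was not tested. The median of the dimmest 10% of genes was 0.46 and 0.59 and that of the brightest −0.54 and −0.52, and quantile normalization brings the latter to −0.01 in both. Calls over all genes with miR-125b ran from 0 to 1491 with IL-7, 3 to 2649 without and 996 to 4727 in the average, and on withdrawal from 7205 to 13120 and 7154 to 13086.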

Other observations

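Most chaperone genes outside the ER fell on withdrawal. Of 11 measured cytosolic and mitochondrial heat shock genes, 9 fell and 1 rose on withdrawal in control cells (median −0.82). In miR-125b cells 10 fell and 1 rose (median −0.92). Of all genes 34.1% fell and 20.0% rose in control cells, and 32.1% and 20.3% in miR-125b cells. After quantile normalization 7 of the 11 fell and 0 rose in each, with medians of −0.40 and −0.29. Of 20615 genes 5773 and 5045 then fell. The mitochondrial chaperone genes Hspd1 (−1.35 and −1.24), Hspa9 (−1.31 and −1.01) and Hspe1 (−1.17 and −1.09) fell; the calls of Hspd1 and Hspe1 in both cell types and of Hspa9 in control cells held in 19 of 19 other settings. The inducible Hspa1a rose by 0.81 in control cells and was at least 1.54-fold higher in miR-125b cells, where no array with IL-7 was well above background, but read −0.16 and −0.29 with normexp background correction. With miR-125b, averaged over both conditions, Hspa9 (0.58), Hspd1 (0.56) and Hspe1 (0.54) rose (limma adjusted p = 0.0328, 0.0438 and 0.0433). These calls were less firm and held in 10, 10 and 9 of 18 other settings.

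Of 22 measured genes of transport from the ER to the Golgi, 2 rose and 7 fell in control cells. In miR-125b cells 3 rose and 7 fell. Of all genes 20.0% rose and 34.1% fell in control cells, and 20.3% and 32.1% in miR-125b cells. The part of the list that fell was thus near that of all genes. After quantile normalization 6 rose and 2 fell in control cells and 5 rose and 3 fell in miR-125b cells. Of 20615 genes 4865 and 4642 then rose and 5773 and 5045 fell. Kdelr2, a receptor that returns chaperones to the ER, fell by 0.75 (SE 0.07) and 0.60 (SE 0.07), and Sec13, of the COPII coat, by 0.70 and 0.66. Sec24d, a cargo adaptor of that coat, was not well above background in control cells with IL-7 and was at least 3.22-fold higher without; with normexp background correction the difference was 0.12 (adjusted p = 0.275).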
